A study of Mus musculus with 8 samples.

Results

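The genes described here are 44 genes of the urea cycle and of amino acid catabolism, taken as every entry of the deposited table whose gene symbol is on a fixed list of 44 symbols, out of 55385 genes in the table. All 44 were measured well enough to be tested, each at 0.5 FPKM or more in at least 4 livers (FPKM, fragments per 1000 bases of exon, scaled to the counted reads of a library). The study sequenced liver RNA from mice lacking *Usp39*, which encodes a protein of the spliceosome related to ubiquitin proteases, in hepatocytes, and from control mice. The comparison asks which liver RNAs differ between these groups. Both groups were male mice aged 5 weeks on a C57BL/6J background, fasted for 16 h, with 4 livers each and 1 library per mouse, none pooled. The HKO mice carried *Usp39* fl/fl alleles, with exon 2 flanked by loxP sites, together with Albumin-Cre. The 4 controls are called wild type or NC in the sample labels and control littermates in the methods. Albumin-Cre acts in hepatocytes, and *Usp39* RNA was not measured by cell type here. The labels name no batch.

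The urea cycle turns the ammonia and aspartate nitrogen left over when amino acids are broken down into urea, and in mammals the whole cycle runs in hepatocytes, mainly those around the portal vein. The liver is also the main site where most essential amino acids other than the branched-chain ones are degraded, by pathways that often begin with the removal of the amino group and end in fuels such as pyruvate, fumarate, acetoacetate or propionyl-CoA. Fasting, glucagon and glucocorticoids are known to raise the RNA of many of these enzymes.

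Total counts on genes were 9181571, 9912927, 8589636 and 10418450 in control mice 1 to 4 and 9718618, 10195028, 9541480 and 9479922 in HKO mice 1 to 4. The lowest count of any member in any liver was 163, in *Afmid*, so counting error was small beside the difference between mice. Every pair of livers of the same group differed beyond counting error, by a chi-square over the tested genes of 6.22 to 37.9 per degree of freedom. Levels below are FPKM divided by a scaling factor for each library (TMM, trimmed mean of M values). The TMM factors were 0.912, 0.923, 0.913 and 0.940 in control mice 1 to 4. In HKO mice 1 to 4 they were 1.01, 1.08, 1.06 and 1.19. Sums of levels and any overlap between groups are on this scale, which lowers HKO livers relative to controls. Log2 fold changes compare HKO with control livers, with p-values from edgeR adjusted over 14340 tested genes. A member or gene is said to have fallen or risen where that adjusted p was under 0.05. With TMM factors the median log2 fold change of all tested genes was 0.00, and without any scaling factor it was 0.23, so each direction below is relative to most genes of the liver. The common biological coefficient of variation was 0.179.

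*Usp39* itself (chr6:72318678-72345184, minus strand, mm10) was measured as a check of the labels. Its levels were 10.3, 11.3, 9.600 and 10.4 in control mice 1 to 4 and 8.27, 7.95, 8.18 and 6.80 in HKO mice 1 to 4. Every HKO liver lay below every control, with RNA from the gene left in each. Counts are per gene, and which exons or cells that RNA came from was not tested. The level fell (log2 fold change -0.41, SE 0.115, adjusted p = 0.0215), and an exact permutation test over the 70 assignments of livers to groups gave a two-sided p of 0.0286, the smallest that 4 against 4 livers can give. The *Usp39* call was lost without control mouse 4, without HKO mouse 4, without scaling factors and in limma on log2 FPKM with 1 or 0.1 added (both limma settings below, neither with a scaling factor), with the same direction. In liver taken whole, fewer cells of a type and less RNA per cell cannot be told apart.

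HKO mouse 1 stood apart from the other HKO mice, with chi-square values of 36.5, 25.9 and 37.9 against HKO mice 2, 3 and 4, where HKO mice 2 to 4 gave 17.2 to 24.4 among themselves. Results that rest on this liver are therefore given with and without it. Control mouse 4 also differed from the other controls in pancreatic RNA, as given with the cell type markers.

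Of the 44 members, 19 fell and 0 rose in HKO livers. Among all 14340 tested genes 11.6% fell and 10.9% rose, by the same rule, and 4.90% fell without scaling factors. The counts of each list below stand beside these shares. No member rose at an unadjusted p under 0.05 in edgeR, and DESeq2 and limma also called 0 higher. The log2 fold change was negative for 43 members and positive for *Glud1* alone, whereas without scaling factors it was negative for 35 and positive for 9. The median over the members was -0.44 (without scaling factors -0.22). The study set its thresholds at a p of less than 0.05 and a log2 fold change of more than 0.5 up or down. With that p taken here as the value before adjustment, edgeR gave 16 lower members (9.44% of all tested genes). It gave 0 higher members (12.0% of all tested genes). For 17 members every HKO liver was below every control (12.9% of all tested genes), and for 0 members every HKO liver was above every control (11.9%). That separation depended on the TMM factors. In FPKM without them only *Afmid*, *Haao*, *Hal*, *Pccb*, *Gldc* and *Csad* of the 17 stayed apart. *Cps1*, *Gpt2*, *Gls2*, *Hpd*, *Hgd*, *Fah*, *Uroc1*, *Pcca*, *Ivd*, *Amt* and *Cdo1* overlapped there. The share of all tested genes was not computed without the factors.

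The members are well expressed genes, and such genes fell more often. Among the 4176 tested genes with a mean level at or above that of the least abundant member, 9.84, 21.1% fell and 7.40% rose, with a median log2 fold change of -0.11. The call count depended on single livers and on scaling. Without HKO mouse 1 it was 27 lower and 0 higher members (11.7% and 13.0% of all tested genes), of which 16 were among the 19. *Hgd*, *Kmo* and *Kynu* lost their call there, and *Amdhd1*, *Asl*, *Bckdha*, *Gpt*, *Gpt2*, *Prodh*, *Sds*, *Sdsl*, *Tat* and *Tdo2* were among those that gained one. The count was 10 without control mouse 3, 10 without control mouse 4 and 10 without HKO mouse 3, where the share of all tested genes that fell was 6.83, 7.22 and 8.46%. With all 8 livers, limma voom with quality weights called 29 members lower (15.2% of all tested genes), the 19 and *Asl*, *Gpt*, *Gpt2*, *Sds*, *Sdsl*, *Tat*, *Amdhd1*, *Prodh*, *Bckdha* and *Dbt*, DESeq2 called the 19 with *Asl* and *Gpt2* (12.3%), and edgeR with no filter on low values called the 19 with *Gpt2*, *Agxt* and *Bckdha* (6.91%, over more genes). Without scaling factors 8 members fell, where 702 of the 14340 tested genes fell and 3539 rose, against 1669 and 1565 with TMM. *Hpd*, *Haao*, *Afmid*, *Hal*, *Gldc* and *Csad* fell under all 17 alternative settings.

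The 8 livers did not shift to the same degree. The median over the members of the log2 ratio to the control mean was -0.07, -0.12, 0.07 and 0.10 in control mice 1 to 4, and -0.24, -0.39, -0.57 and -0.73 in HKO mice 1 to 4. Members below every control numbered 24 in HKO mouse 1, 30 in HKO mouse 2, 40 in HKO mouse 3 and 42 in HKO mouse 4, against 29.7, 30.1, 31.1 and 32.6% of all tested genes. These medians and counts depend on the TMM factors, of which that of HKO mouse 4, 1.19, was the largest. The summed level of all 44 members was 11407, 10861, 12492 and 11817 in control mice 1 to 4 and 11486, 8062, 7824 and 6760.1 in HKO mice 1 to 4, so HKO mouse 1 lay among the controls. As a share of all FPKM of a liver, which needs no scaling factor, the members made up 3.05, 2.94, 3.45 and 3.39% in control mice 1 to 4 and 3.39, 2.73, 2.44 and 2.51% in HKO mice 1 to 4. That share was 3.21 ± 0.250% (SD, n = 4) in controls and 2.77 ± 0.434% (SD, n = 4) in HKO livers. The 7 urea cycle members alone took 1.09 ± 0.0948% (SD, n = 4) in controls and 1.04 ± 0.108% (SD, n = 4) in HKO livers, a difference within the spread between mice. Their summed level with TMM factors was 3973 ± 302 (SD, n = 4) in controls and 3175 ± 546 (SD, n = 4) in HKO livers. On that scale HKO mice 2 to 4 were below every control and HKO mouse 1 was among the controls.

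**Figure D1:**
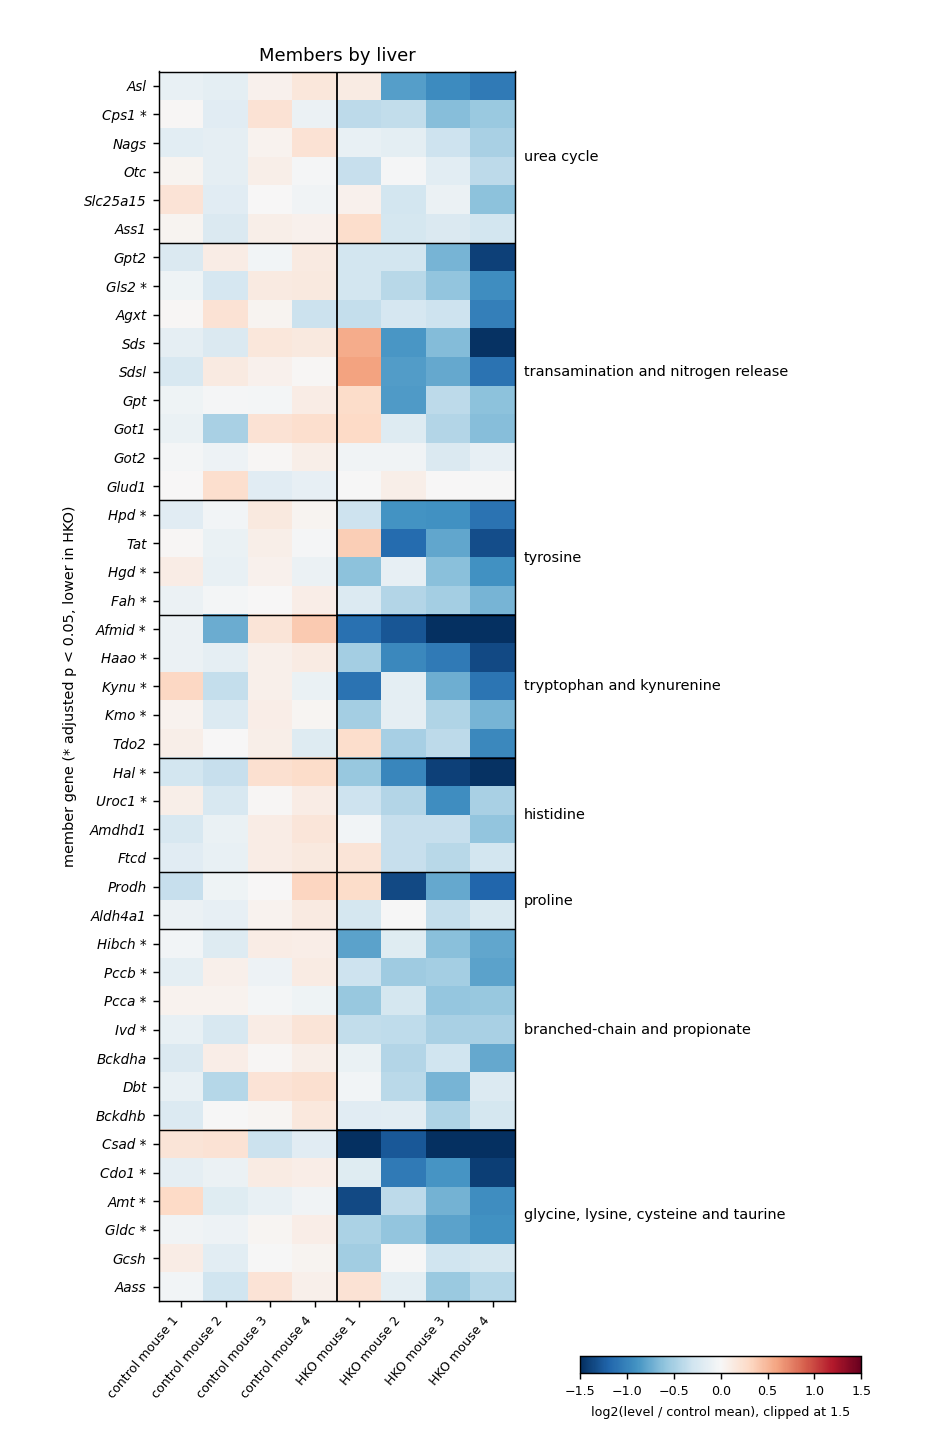
Log2 ratio of each member's level to its mean in the 4 controls, with 43 of the 44 members as lines grouped by role and the 8 livers as columns. Most members were lower in HKO mice 2 to 4, and a set including *Tat*, *Sds* and *Sdsl* was above the controls in HKO mouse 1; without scaling factors 9 members had a positive log2 fold change.

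Because many members fell together, their promoters were read from RefSeq windows of 300 bases on GRCm38.p6, from 250 bases before to 50 bases after a gene's start, which were available for 34 of the 44 members as 38 windows. Motifs were searched on both strands, and 4 of 5 are named. The C/EBP motif TTGCNNAA, bound by a factor family active in liver, was in 3 member windows (7.89%) and in 10.8% of all 32817 windows. The cyclic AMP element TGACGTCA was in 0 member windows and in 1.79% of all windows. The HNF4 motif CAAAGTCCA was in 0 member windows and in 0.475% of all. TATAAA was in 5 member windows (13.2%), of *Ftcd*, *Got2*, *Hal*, *Hgd* and *Tdo2*, and in 13.6% of all. The motif that is not named was in 1 member window (2.63%) and in 0.801% of all. A match is a description of letters only, and none of the motifs overlapped another in the sequences shown. The sequences shown are the 250 bases before the start of the 3 members with the C/EBP letters, *Aass* (chr6:23132987-23133236, minus strand), *Hal* (chr10:93488518-93488767, plus strand) and *Hgd* (chr16:37579903-37580152, plus strand), 5′ to 3′ along the gene with the match in capitals, 22, 150 and 49 bases before the start. The matches of *Aass* and *Hgd* are on the opposite strand, and a further *Hgd* match, 14 bases after the start, is outside the sequence shown.
Aass: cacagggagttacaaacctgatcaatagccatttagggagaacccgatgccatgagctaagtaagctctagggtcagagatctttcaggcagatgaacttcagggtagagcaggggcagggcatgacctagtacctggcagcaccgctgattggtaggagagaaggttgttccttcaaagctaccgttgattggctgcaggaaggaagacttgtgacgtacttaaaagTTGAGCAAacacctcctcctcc
Hal: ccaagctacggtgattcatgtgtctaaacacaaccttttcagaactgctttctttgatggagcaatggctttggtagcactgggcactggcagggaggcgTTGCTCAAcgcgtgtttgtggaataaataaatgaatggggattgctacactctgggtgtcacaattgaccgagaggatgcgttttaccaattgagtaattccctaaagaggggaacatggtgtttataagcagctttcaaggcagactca
Hgd: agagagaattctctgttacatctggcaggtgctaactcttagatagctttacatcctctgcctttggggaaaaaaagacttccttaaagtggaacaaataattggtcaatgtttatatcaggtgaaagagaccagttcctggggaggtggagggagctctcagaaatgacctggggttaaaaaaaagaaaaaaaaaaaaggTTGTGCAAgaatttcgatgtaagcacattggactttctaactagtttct

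*Hal* and *Hgd* fell in HKO livers and *Aass* did not pass the test, so the members with these letters did not share a call. TATAAA matched on the opposite strand only, as TTTATA, 28 bases before the start of *Hal* and 139 bases before that of *Hgd*.

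In the urea cycle, 1 of 7 members fell, against 11.6% of all tested genes. Without scaling factors 0 fell, against 4.90% of all. *Cps1* (ENSMUSG00000025991, chr1:67123026-67231259, plus strand), the mitochondrial synthetase that commits ammonia to the cycle, had the highest mean of the members. *Cps1* levels were 1632, 1431, 1868 and 1512 in control mice 1 to 4 and 1229, 1249, 1036 and 1095 in HKO mice 1 to 4. With TMM factors the lowest control was above the highest HKO liver. In FPKM without them the groups overlapped, with 1355 in HKO mouse 2 and 1320 in control mouse 2. *Cps1* averaged 1610.5 ± 190.2 (SD, n = 4) in controls and 1152 ± 103 (SD, n = 4) in HKO livers, and it fell (log2 fold change -0.48, SE 0.147, adjusted p = 0.0326). The call was lost without control mouse 1, 3 or 4, without HKO mouse 3, without scaling factors, with upper-quartile scaling, with a filter at a mean of 5 FPKM and in both limma settings. *Asl* (ENSMUSG00000025533, chr5:130011258-130029247, minus strand) encodes the lyase that releases arginine and fumarate. *Asl* levels were 278, 271, 312 and 338 in control mice 1 to 4 and 325, 169, 156 and 144 in HKO mice 1 to 4. The level in HKO mouse 1 was within the range of the controls, and HKO mice 2 to 4 were below all of them. *Asl* did not pass the test in edgeR (log2 fold change -0.59, SE 0.236, adjusted p = 0.0933). It was called lower without HKO mouse 1, in DESeq2 and in limma voom with quality weights, with a log2 fold change of -0.92 without HKO mouse 1.

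*Ass1*, which joins citrulline and aspartate and was chosen for its levels after they were seen, showed a like split among HKO mice. *Ass1* levels were 943, 789.7, 972 and 955 in control mice 1 to 4 and 1103, 761, 786 and 757 in HKO mice 1 to 4. The level in HKO mouse 1 was above every control, and those in HKO mice 2 to 4 were below every control. The difference did not pass the test (log2 fold change -0.10, adjusted p = 0.680), nor did it without HKO mouse 1, at -0.23. *Ass1* counts rest on sequence it shares with a pseudogene, *Gm5424*, over 73.1% of its transcript, and *Gm5424* held 4820 to 6915 counts in each liver. *Otc*, the carbamoyltransferase that makes citrulline, *Nags*, which makes the activator of *Cps1*, and *Slc25a15*, the ornithine carrier, did not pass the test, with log2 fold changes of -0.22, -0.26 and -0.21. Without scaling factors *Otc*, *Ass1* and *Slc25a15* had positive values.

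Of the 9 enzymes of transamination and nitrogen release, 1 fell, against 11.6% of all tested genes. Without scaling factors 0 fell, against 4.90% of all. *Gls2* (ENSMUSG00000044005, chr10:128194457-128210004, plus strand) is the liver glutaminase, which frees ammonia from glutamine. *Gls2* levels were 92.7, 81.2, 106 and 107 in control mice 1 to 4 and 80.0, 72.7, 64.0 and 50.8 in HKO mice 1 to 4. HKO mouse 1 came closest to the lowest control, and the groups did not overlap with TMM factors. In FPKM without them they did. *Gls2* averaged 96.8 ± 12.2 (SD, n = 4) in controls and 66.9 ± 12.6 (SD, n = 4) in HKO livers and fell (log2 fold change -0.53, SE 0.149, adjusted p = 0.0223). The *Gls2* call was lost without control mouse 3 or 4, without HKO mouse 3 or 4, without scaling factors and in both limma settings. *Gpt2* (ENSMUSG00000031700, chr8:85492576-85527560, plus strand), the mitochondrial alanine aminotransferase, had levels of 181, 227, 204 and 231 in control mice 1 to 4 and 174, 175, 130.3 and 79.6 in HKO mice 1 to 4. With TMM factors all HKO livers were below all controls, with HKO mouse 4 lowest, and in FPKM without them the groups overlapped. The difference did not pass the test in edgeR (log2 fold change -0.59, SE 0.216, adjusted p = 0.0682). It was called without HKO mouse 1 or 2, in DESeq2, in limma voom with quality weights and with no filter on low values, with a log2 fold change of -0.69 without HKO mouse 1.

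*Got1*, the cytosolic aspartate aminotransferase (ENSMUSG00000025190, chr19:43499752-43524605, minus strand), had the highest mean of these 9 over all livers. Its levels were 311, 237, 386 and 397 in control mice 1 to 4 and 411, 291, 246 and 214 in HKO mice 1 to 4. The groups overlapped, with HKO mouse 1 above every control. No difference was called (log2 fold change -0.20, SE 0.215, adjusted p = 0.554), and without scaling factors the log2 fold change was 0.02. *Sds* and *Sdsl*, which deaminate serine and threonine and are named here after their values were seen, differed widely among HKO mice. *Sds* levels were 75.4, 71.4, 93.3 and 92.2 in control mice 1 to 4 and 122, 45.2, 53.1 and 29.8 in HKO mice 1 to 4. *Sdsl* levels were 21.0, 27.1, 25.9 and 25.0 in control mice 1 to 4 and 37.7, 13.9, 14.5 and 11.5 in HKO mice 1 to 4. In both, HKO mouse 1 was above every control and the other HKO mice were below every control. The 4 HKO livers together did not pass the test (log2 fold change -0.41, adjusted p = 0.539 for *Sds*; log2 fold change -0.36, adjusted p = 0.545 for *Sdsl*). Without HKO mouse 1 both fell, at -0.94 and -0.88, and limma voom with quality weights called both with all livers. *Gpt*, the cytosolic alanine aminotransferase, had the same split of HKO mice, with log2 fold changes of -0.33 with and -0.59 without HKO mouse 1, and it was called without HKO mouse 1 and in limma voom with quality weights. *Got2* (-0.11), *Glud1* (0.02) and *Agxt* (-0.45), the mitochondrial aspartate aminotransferase, the glutamate dehydrogenase and an enzyme that makes glycine from glyoxylate, did not pass with or without it, and *Agxt* was called with no filter on low values. *Got2* was positive without scaling factors, at 0.12.

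In tyrosine breakdown, 3 of 4 members fell, against 11.6% of all tested genes. Without scaling factors 1 fell, against 4.90% of all. *Hpd* (ENSMUSG00000029445, chr5:123171807-123182727, minus strand), the dioxygenase that makes homogentisate, had levels of 911, 997, 1131 and 1053 in control mice 1 to 4 and 824, 550.5, 543 and 473.3 in HKO mice 1 to 4. With TMM factors every HKO liver was below every control, with HKO mouse 1 the highest of the HKO mice. Without them HKO mouse 1, at 834 FPKM, was above control mouse 1, at 831. *Hpd* averaged 1023 ± 92.5 (SD, n = 4) in controls and 598 ± 155 (SD, n = 4) in HKO livers and fell (log2 fold change -0.77, SE 0.173, adjusted p = 0.00755). *Fah* (ENSMUSG00000030630, chr7:84585159-84606722, minus strand), the hydrolase at the end of the pathway, had levels of 245, 254, 262 and 279.9 in control mice 1 to 4 and 226, 192, 183 and 161 in HKO mice 1 to 4. The groups did not overlap with TMM factors but did in FPKM without them, and HKO mouse 1 was again the highest HKO liver. *Fah* fell (log2 fold change -0.45, SE 0.126, adjusted p = 0.0222), a call lost without control mouse 3 or 4, without HKO mouse 3 or 4, without scaling factors and in both limma settings. *Hgd*, which opens the ring of homogentisate, fell too (log2 fold change -0.54, adjusted p = 0.0299), a call lost without control mouse 1, 3 or 4, without HKO mouse 1, 3 or 4, without scaling factors, with a filter at a mean of 5 FPKM and in both limma settings.

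*Tat* (ENSMUSG00000001670, chr8:109990437-109999803, plus strand), the aminotransferase that starts tyrosine breakdown and a known target of glucocorticoids, was the most abundant of the 4. *Tat* levels were 1405, 1294, 1465 and 1369 in control mice 1 to 4 and 1781, 624, 805 and 552 in HKO mice 1 to 4. HKO mouse 1 had the highest level of the 8 livers, and HKO mice 2 to 4 were below every control, so the HKO group spanned the controls. *Tat* averaged 1383 ± 71.5 (SD, n = 4) in controls and 940.4 ± 570.3 (SD, n = 4) in HKO livers. It did not pass the test in edgeR (log2 fold change -0.56, SE 0.336, adjusted p = 0.274). It was called without HKO mouse 1 and in limma voom with quality weights, with a log2 fold change of -1.05 without HKO mouse 1.

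Of 5 members of tryptophan and kynurenine breakdown, 4 fell, against 11.6% of all tested genes. Without scaling factors 2 fell, against 4.90% of all. *Haao* (ENSMUSG00000000673, chr17:83831156-83847963, minus strand), the dioxygenase that leads toward quinolinate and NAD, had levels of 50.1, 48.4, 56.0 and 57.8 in control mice 1 to 4 and 37.2, 27.0, 25.4 and 20.8 in HKO mice 1 to 4. The highest HKO liver, HKO mouse 1, was still below the lowest control. *Haao* averaged 53.1 ± 4.55 (SD, n = 4) in controls and 27.6 ± 6.95 (SD, n = 4) in HKO livers and fell (log2 fold change -0.94, SE 0.158, adjusted p = 0.00175). *Afmid* (ENSMUSG00000017718, chr11:117825924-117839908, plus strand), the formamidase that makes kynurenine, had levels of 13.5, 8.56, 16.4 and 18.7 in control mice 1 to 4 and 6.61, 5.85, 4.96 and 4.10 in HKO mice 1 to 4. Control mouse 2 was the lowest control and still above all HKO livers. *Afmid* fell (log2 fold change -1.41, SE 0.234, adjusted p = 0.00273). Its exons share 44.2% of their bases with the same-strand gene *Gm20708*, which had 0 counts in every liver. *Kmo*, a hydroxylase of kynurenine (log2 fold change -0.43, adjusted p = 0.0363), and *Kynu*, a hydrolase of the pathway (log2 fold change -0.71, adjusted p = 0.0411), fell as well, and both calls were lost without control mouse 1, 3 or 4, without HKO mouse 1, 3 or 4, without scaling factors, with upper-quartile scaling, with a filter at a mean of 5 FPKM and in both limma settings. *Tdo2* (ENSMUSG00000028011, chr3:81957090-81976202, minus strand), the dioxygenase that opens tryptophan and the most abundant of the 5, had levels of 634, 599, 638 and 522 in control mice 1 to 4 and 719.6, 422, 458 and 307 in HKO mice 1 to 4. Only in HKO mouse 1 was it above the controls, and in the other HKO mice it was below every control. *Tdo2* did not pass the test (log2 fold change -0.33, SE 0.216, adjusted p = 0.305), and without HKO mouse 1 it fell, at -0.58.

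Of the 4 histidine enzymes, 2 fell, against 11.6% of all tested genes. Without scaling factors 1 fell, against 4.90% of all. *Hal* (ENSMUSG00000020017, chr10:93488768-93519304, plus strand), the ammonia lyase that makes urocanate and whose promoter letters are printed above, had levels of 131, 125, 187 and 192 in control mice 1 to 4 and 107, 80.6, 60.3 and 56.8 in HKO mice 1 to 4. The controls formed a lower pair, mice 1 and 2, and a higher pair, mice 3 and 4, and all HKO livers were below both. *Hal* averaged 159 ± 35.5 (SD, n = 4) in controls and 76.2 ± 23.2 (SD, n = 4) in HKO livers and fell (log2 fold change -1.06, SE 0.219, adjusted p = 0.00588). *Uroc1* (ENSMUSG00000034456, chr6:90333284-90364551, plus strand), the urocanate hydratase, had levels of 137, 109, 131 and 139.7 in control mice 1 to 4 and 104, 95.5, 67.7 and 92.2 in HKO mice 1 to 4. The lowest control, mouse 2, was close to the highest HKO liver, mouse 1, without overlap. In FPKM without TMM factors the groups overlapped. *Uroc1* fell (log2 fold change -0.52, SE 0.145, adjusted p = 0.0207), a call lost without control mouse 1, 3 or 4, without HKO mouse 3, without scaling factors, with a filter at a mean of 5 FPKM and in both limma settings. *Ftcd* (ENSMUSG00000001155, chr10:76575648-76590338, plus strand), which passes the histidine carbon on to folate and had the highest mean of the 4, had levels of 145, 151, 177 and 180.5 in control mice 1 to 4 and 186, 129, 122 and 135 in HKO mice 1 to 4. Again HKO mouse 1 was above every control and the others below. *Ftcd* did not pass (log2 fold change -0.19, SE 0.1498, adjusted p = 0.396) with or without HKO mouse 1 and was at 0.04 without scaling factors. *Amdhd1*, the imidazolonepropionase, was at -0.32 and was called without HKO mouse 1 and in limma voom with quality weights.

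Neither of the 2 proline enzymes passed the test in edgeR, and 0 had an unadjusted p under 0.05. DESeq2 and both limma settings on log2 FPKM called 0 as well, and limma voom with quality weights called *Prodh* alone. *Prodh* (ENSMUSG00000003526, chr16:18060357-18090203, minus strand), which oxidizes proline, had levels of 17.1, 20.8, 21.9 and 27.3 in control mice 1 to 4 and 26.3, 8.54, 12.8 and 9.55 in HKO mice 1 to 4. The level in HKO mouse 1 was near the highest control, and the other HKO mice were below every control. *Prodh* gave log2 fold change -0.61, SE 0.365, adjusted p = 0.281, and without HKO mouse 1 it fell, at -1.06. *Aldh4a1* (ENSMUSG00000028737, chr4:139622866-139649690, plus strand), the dehydrogenase that follows, had levels of 33.7, 32.9, 37.3 and 39.4 in control mice 1 to 4 and 29.8, 35.6, 28.1 and 30.5 in HKO mice 1 to 4. The groups overlapped through HKO mouse 2. Its difference was not called (log2 fold change -0.21, SE 0.111, adjusted p = 0.198) and turned to 0.03 without scaling factors.

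Of the 7 members for branched-chain amino acids and propionate, 4 fell, against 11.6% of all tested genes. Without scaling factors 0 fell, against 4.90% of all. *Pcca* and *Pccb* encode the subunits of propionyl-CoA carboxylase, which leads carbon from valine, isoleucine, methionine and threonine toward succinyl-CoA. *Pcca* (ENSMUSG00000041650, chr14:122534324-122891100, plus strand) levels were 17.7, 17.7, 16.7 and 16.3 in control mice 1 to 4 and 11.6, 14.3, 11.5 and 11.6 in HKO mice 1 to 4. HKO mouse 2 was higher than the other HKO livers, and the groups did not overlap with TMM factors. In FPKM without them they did. *Pcca* averaged 17.1 ± 0.687 (SD, n = 4) in controls and 12.2 ± 1.39 (SD, n = 4) in HKO livers and fell (log2 fold change -0.48, SE 0.101, adjusted p = 0.00534). *Pccb* (ENSMUSG00000032527, chr9:100982032-101034898, minus strand), with the highest mean of the 7, had levels of 68.2, 79.8, 71.8 and 82.1 in control mice 1 to 4 and 61.0, 52.2, 53.1 and 43.3 in HKO mice 1 to 4. All HKO livers were below all controls. *Pccb* averaged 75.5 ± 6.56 (SD, n = 4) in controls and 52.4 ± 7.23 (SD, n = 4) in HKO livers and fell (log2 fold change -0.53, SE 0.122, adjusted p = 0.00885). Both carboxylase calls held without any single liver and were lost without scaling factors and in both limma settings, in the same direction.

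*Hibch*, a hydrolase of valine breakdown (log2 fold change -0.58, adjusted p = 0.0115), and *Ivd*, a dehydrogenase of leucine breakdown (log2 fold change -0.43, adjusted p = 0.0209), also fell. The *Hibch* call was lost without scaling factors and in both limma settings, and the *Ivd* call without control mouse 3 or 4, without HKO mouse 3 or 4, without scaling factors and in both limma settings. *Bckdha*, *Bckdhb* and *Dbt* encode the branched-chain ketoacid dehydrogenase complex that commits these amino acids to oxidation. Their log2 fold changes of -0.38, -0.26 and -0.32 did not pass, *Bckdha* was called without HKO mouse 1, in limma voom with quality weights and with no filter on low values, and *Dbt* in limma voom with quality weights. The *Bckdha* exons overlap *B3gnt8* on the opposite strand over 61.7% of their bases, so its count depends on how strands were treated.

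Of the 6 members for glycine, lysine, cysteine and taurine, 4 fell, against 11.6% of all tested genes. Without scaling factors 4 fell, against 4.90% of all. *Gldc* (ENSMUSG00000024827, chr19:30098447-30175429, minus strand), the decarboxylase of the glycine cleavage system, had levels of 69.6, 68.4, 73.8 and 77.2 in control mice 1 to 4 and 52.0, 47.8, 41.4 and 38.5 in HKO mice 1 to 4. The groups did not overlap, and the gap between them was wider than the range of either. *Gldc* averaged 72.3 ± 4.03 (SD, n = 4) in controls and 44.9 ± 6.09 (SD, n = 4) in HKO livers and fell (log2 fold change -0.69, SE 0.122, adjusted p = 0.00242). *Amt* (ENSMUSG00000032607, chr9:108296853-108302302, plus strand), the aminomethyltransferase of the same system, had levels of 29.1, 20.9, 22.0 and 22.9 in control mice 1 to 4 and 9.26, 18.0, 14.5 and 12.4 in HKO mice 1 to 4. HKO mouse 1 was the lowest of the livers, unlike in most members. *Amt* fell (log2 fold change -0.81, SE 0.182, adjusted p = 0.00894), in both limma settings without a call. *Gcsh*, the carrier protein of the system, was at -0.26 and did not pass, though it did without HKO mouse 2.

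*Cdo1*, the dioxygenase that oxidizes cysteine and the most abundant of the 6, had levels of 871, 898, 1040.0 and 1024 in control mice 1 to 4 and 847, 458, 519 and 359 in HKO mice 1 to 4. Close under the lowest control was HKO mouse 1, and the other HKO mice were far below. In FPKM without TMM factors HKO mouse 1 was above control mouse 1. *Cdo1* averaged 958 ± 86.2 (SD, n = 4) in controls and 546 ± 211 (SD, n = 4) in HKO livers and fell (log2 fold change -0.81, SE 0.222, adjusted p = 0.0214), with a log2 fold change of -1.08 without HKO mouse 1. The *Cdo1* call was lost without control mouse 3 or 4 and without HKO mouse 2 or 3. *Csad*, named after its values were seen as the member with the most negative log2 fold change, encodes the decarboxylase that leads from cysteine sulfinate to taurine (chr15:102176999-102204724, minus strand). *Csad* levels were 76.2, 77.4, 52.9 and 59.2 in control mice 1 to 4 and 8.04, 27.6, 22.0 and 13.2 in HKO mice 1 to 4. HKO mouse 1 was the lowest liver, and every HKO liver was below every control. *Csad* averaged 66.5 ± 12.3 (SD, n = 4) in controls and 17.7 ± 8.75 (SD, n = 4) in HKO livers and fell (log2 fold change -1.91, SE 0.369, adjusted p = 0.00955), with -1.65 without HKO mouse 1. *Aass*, which starts lysine breakdown, was above every control in HKO mouse 1 and did not pass the test, at -0.20, turning to 0.03 without scaling factors.

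**Figure D2:**
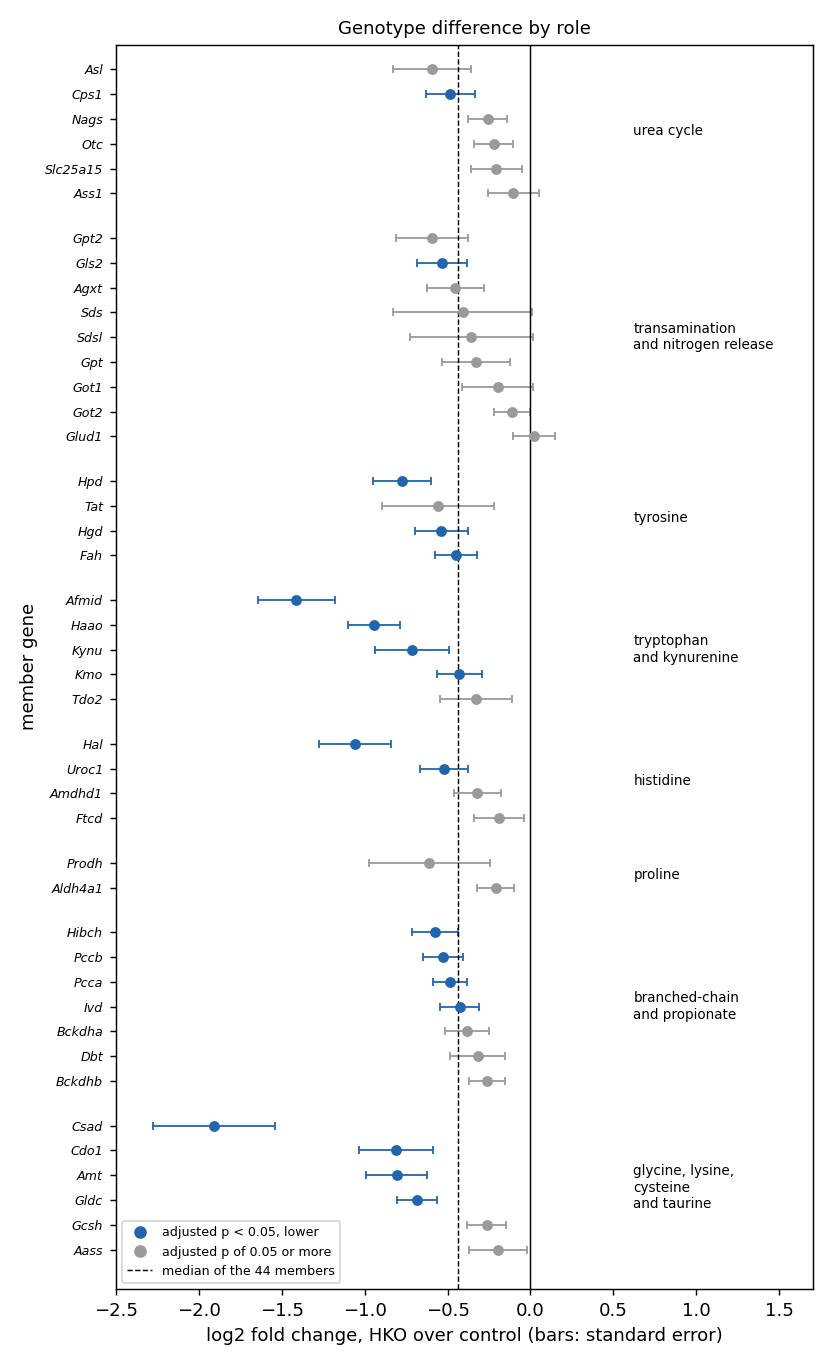
Log2 fold change of 43 of the 44 members, HKO over control, with bars of 1 SE, grouped by role; blue points fell at an adjusted p under 0.05 in edgeR and grey points did not pass. The 19 blue points lie between -1.91 (*Csad*) and -0.43, and *Glud1* alone lies above 0; without scaling factors 9 members lie above 0.

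**Figure D3:**
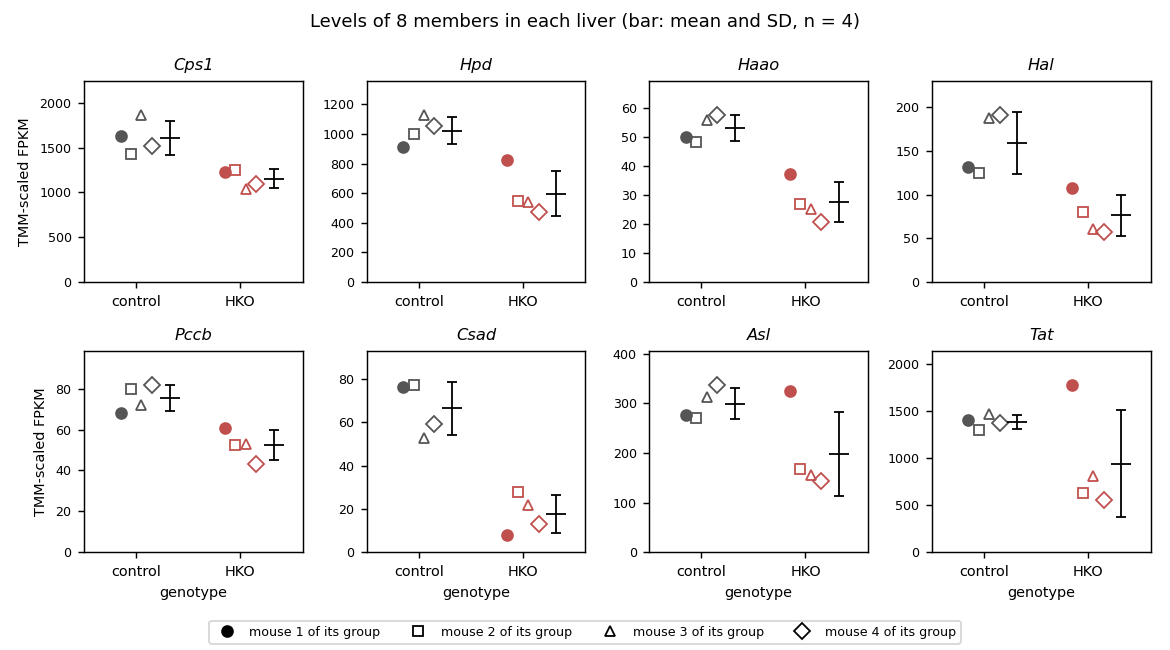
Level of 8 members in each of the 8 livers (FPKM over the TMM factor), with points for mice and bars for the mean and SD of each group (n = 4). *Tat* and *Asl* overlap between groups because HKO mouse 1 is at or above the controls, and *Csad* is lowest in that liver.

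The livers with the least RNA of one member were not always those with the least of another. HKO mouse 1 was above every control for 10 members (30.8% of all tested genes), among them *Ass1*, *Got1*, *Gpt*, *Sds*, *Sdsl*, *Tat*, *Tdo2*, *Ftcd* and *Aass*. For 8 of them, all but *Got1* and *Aass*, HKO mice 2 to 4 were at the same time below every control. In FPKM without TMM factors *Ass1* and *Ftcd* did not show this split. This split, chosen for description after the values were seen, was present in 0.997% of all tested genes, or 143 genes. A single library allows no test of it. HKO mouse 1 had the highest level of the HKO mice for 29 of the 44 members (29.6% of all tested genes) and the lowest for 5 (29.4%), which were *Csad*, *Amt*, *Hibch*, *Gcsh* and *Kynu*. Outside the members the same split was found for *Oat* and *Rhbg* among 10 tested neighbours of the urea cycle, for *Foxo1* and *Crtc2* among 18 regulators, and for 0 of 46 other catabolic enzymes and 0 of 23 transporters. The median log2 fold change of the members was -0.44 with HKO mouse 1 and -0.49 without it.

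**Figure D4:**
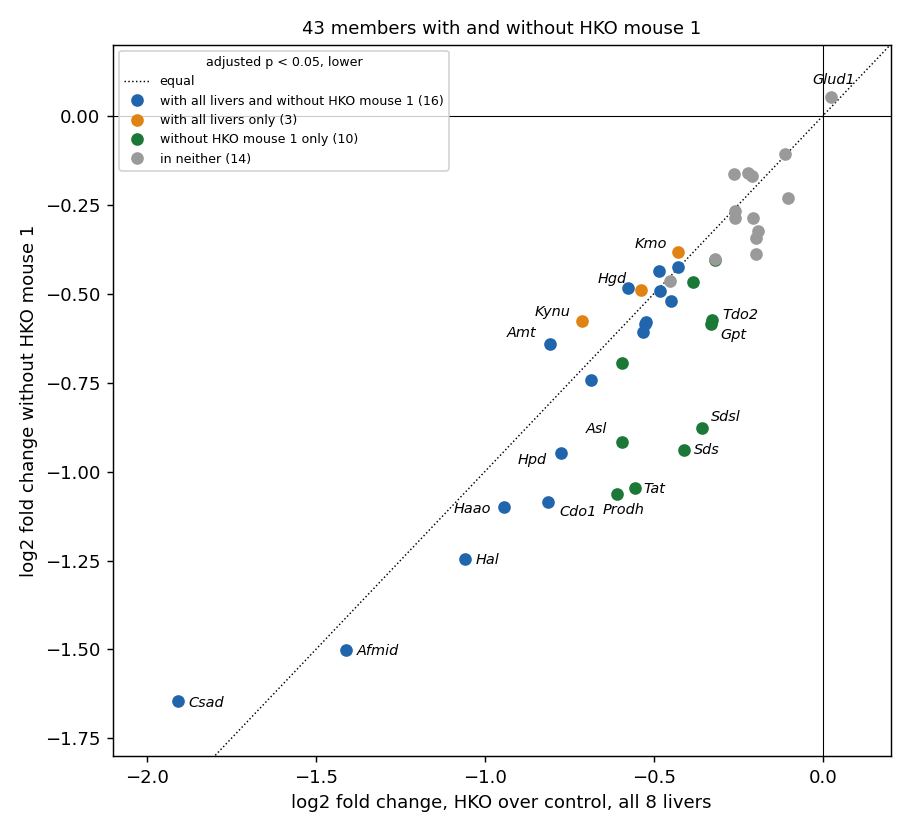
Log2 fold change of 43 of the 44 members without HKO mouse 1 (vertical axis) against that from all 8 livers (horizontal axis), with the line of equal values. *Tat*, *Sds* and *Prodh* lie far below the line, at -1.05, -0.94 and -1.06 without HKO mouse 1, and *Csad* lies above it; in the fit without scaling factors 9 members were positive.

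Of 12 genes around ammonia, ornithine and arginine, 10 were tested, 3 fell and 1 rose, and without scaling factors 2 fell and 1 rose. *Slc25a2* was under the level filter. *Car5a*, the mitochondrial anhydrase that supplies bicarbonate to *Cps1*, had levels of 23.8, 17.8, 21.9 and 25.3 in control mice 1 to 4 and 10.48, 10.9, 11.3 and 8.04 in HKO mice 1 to 4. All HKO livers were below all controls, and it fell (log2 fold change -1.13, SE 0.147, adjusted p = 0.000520). *Slc25a13*, the aspartate-glutamate carrier that feeds aspartate to the cycle, had levels of 138, 127, 143 and 137 in control mice 1 to 4 and 78.1, 116, 84.5 and 83.3 in HKO mice 1 to 4. HKO mouse 2 was higher than the other HKO mice, and the gene fell (log2 fold change -0.59, SE 0.137, adjusted p = 0.00914), a call lost without scaling factors and in both limma settings. *Glul*, the glutamine synthetase of the hepatocytes around the central vein, had levels of 188, 259.9, 207 and 212 in control mice 1 to 4 and 172, 93.8, 102 and 63.9 in HKO mice 1 to 4. The level in HKO mouse 1 was close to the lowest control, and the gene fell (log2 fold change -1.004, SE 0.259, adjusted p = 0.0198), a call lost without HKO mouse 2 or 3 and with no filter on low values. The count of these genes that fell was 2 without HKO mouse 2 or 3 and 5 without HKO mouse 1, and 0 rose without control mouse 2, 3 or 4 and without HKO mouse 3 or 4. The median log2 fold change of the 10 was -0.33, at -0.49 without HKO mouse 1 and -0.10 without scaling factors.

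The other enzymes of amino acid catabolism fell far more often than they rose. Of 50 listed, 46 were tested, 29 fell and 0 rose, with a median log2 fold change of -0.47 (-0.24 without scaling factors), where 2, *Kyat3* and *Asrgl1*, were higher at an unadjusted p under 0.05 in edgeR and DESeq2 called 1 higher. Without scaling factors 15 fell and 3 rose. For 27 every HKO liver was below every control (12.9% of all tested genes). Without HKO mouse 1, 28 fell and 0 rose, and the count that fell was 18 without control mouse 4 and 19 without control mouse 3. *Bcat1*, *Tdh*, *Dao* and *Gadl1* were under the level filter. *Prodh2*, which oxidizes hydroxyproline, had levels of 81.6, 102, 96.96 and 106 in control mice 1 to 4 and 59.4, 62.0, 51.8 and 56.3 in HKO mice 1 to 4 and fell (log2 fold change -0.75, SE 0.114, adjusted p = 0.00104). *Shmt1*, the cytosolic hydroxymethyltransferase that interconverts serine and glycine, had levels of 45.1, 51.9, 43.2 and 48.5 in control mice 1 to 4 and 31.0, 31.4, 27.3 and 25.1 in HKO mice 1 to 4 and fell (log2 fold change -0.72, SE 0.111, adjusted p = 0.00116). In both, the groups did not overlap and HKO mouse 1 was within the range of the other HKO mice. *Abat*, the transaminase of GABA, had levels of 109, 89.2, 117 and 116 in control mice 1 to 4 and 68.1, 58.0, 49.0 and 45.1 in HKO mice 1 to 4 and fell (log2 fold change -0.97, SE 0.152, adjusted p = 0.00124). *Mccc2*, a subunit of the carboxylase of leucine breakdown, had levels of 27.1, 30.0, 33.6 and 35.0 in control mice 1 to 4 and 21.0, 20.5, 17.1 and 14.4 in HKO mice 1 to 4 and fell (log2 fold change -0.79, SE 0.133, adjusted p = 0.00185). HKO mouse 4 was lowest for this pair, and these 4 enzymes fell in all 17 alternative settings.

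Amino acid transporters went in both directions. Of 24 listed, 23 were tested, 5 fell and 4 rose, with a median log2 fold change of -0.14, and without scaling factors 4 fell and 6 rose, with a median of 0.09. *Slc7a1* was under the level filter. *Slc36a1*, a proton-coupled carrier of small amino acids, had levels of 9.93, 7.29, 9.02 and 8.62 in control mice 1 to 4 and 4.50, 6.36, 4.73 and 5.39 in HKO mice 1 to 4 and fell (log2 fold change -0.73, SE 0.135, adjusted p = 0.00284). *Slc6a12*, a carrier of betaine and GABA, had levels of 43.2, 40.2, 51.1 and 51.5 in control mice 1 to 4 and 38.0, 26.1, 24.6 and 22.2 in HKO mice 1 to 4 and fell (log2 fold change -0.75, SE 0.159, adjusted p = 0.00631). *Slc7a8*, an exchanger of neutral amino acids, had levels of 2.93, 2.51, 3.21 and 2.77 in control mice 1 to 4 and 4.20, 4.70, 5.61 and 7.98 in HKO mice 1 to 4 and rose (log2 fold change 0.98, SE 0.186, adjusted p = 0.00335). *Slc1a4*, a carrier of alanine, serine and cysteine, had levels of 1.19, 1.56, 1.30 and 1.40 in control mice 1 to 4 and 2.30, 4.56, 2.38 and 4.94 in HKO mice 1 to 4 and rose (log2 fold change 1.38, SE 0.262, adjusted p = 0.00344). With TMM factors none of these 4 genes overlapped between groups, and HKO mouse 4 had the highest level of both genes that rose. In FPKM without them *Slc36a1* and *Slc6a12* overlapped. The count that fell was 3 without control mouse 3 or 4 and 9 without HKO mouse 1, and the count that rose was 2 without control mouse 1, 3 or 4 and 6 without control mouse 2 and without HKO mouse 2.

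Enzymes that make amino acids were mostly at low levels. Of 11 listed, 10 were in the table, 7 were tested, 2 fell and 0 rose in edgeR, where 3, among them *Psat1* and *Psph*, were higher at an unadjusted p under 0.05 and DESeq2 called 2 higher, and without scaling factors 1 fell and 3 rose. *Phgdh*, *Pycr1* and *Gad1* were under the level filter. *Asns*, the asparagine synthetase, had levels of 6.11, 9.35, 7.46 and 7.205 in control mice 1 to 4 and 2.82, 2.18, 2.74 and 1.66 in HKO mice 1 to 4. Its highest HKO liver was below its lowest control by more than the range of the HKO livers, and it fell (log2 fold change -1.68, SE 0.190, adjusted p = 0.000258). *Cbs*, which starts the path from homocysteine to cysteine, had levels of 76.0, 78.4, 76.3 and 84.5 in control mice 1 to 4 and 69.7, 62.3, 54.4 and 43.7 in HKO mice 1 to 4 and fell (log2 fold change -0.45, SE 0.143, adjusted p = 0.0376), a call lost without any 1 of the 4 controls, without HKO mouse 3 or 4, without scaling factors, with upper-quartile scaling, with a filter at a mean of 5 FPKM and in both limma settings. The median of the 7 was 0.47, at 0.17 without HKO mouse 4, 0.71 without scaling factors and -0.30 for the 2 genes left with a filter at a mean of 5 FPKM. Of these 7, 1 fell without any 1 of the 4 controls and without HKO mouse 3 or 4, while 1 rose without control mouse 2 and without HKO mouse 1, 2 or 3.

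Of 18 hormone receptors and transcription regulators that act on these enzymes, all were tested, 7 fell and 1 rose, with a median log2 fold change of -0.36, and without scaling factors 4 fell and 1 rose, with a median of -0.13. The count of regulators that fell was 4 without control mouse 3 or 4 and without HKO mouse 3 or 4. *Gcgr*, the glucagon receptor, had levels of 106, 129, 110.4 and 111 in control mice 1 to 4 and 63.4, 66.2, 66.3 and 44.4 in HKO mice 1 to 4. HKO mouse 4 was lowest, the groups did not overlap, and it fell (log2 fold change -0.92, SE 0.139, adjusted p = 0.00101). *Ppara*, the fatty acid receptor of the fasting response, had levels of 76.6, 82.4, 63.0 and 75.0 in control mice 1 to 4 and 41.8, 49.0, 42.5 and 33.6 in HKO mice 1 to 4 and fell (log2 fold change -0.83, SE 0.133, adjusted p = 0.00134). *Prox1*, a regulator of hepatocyte identity, had levels of 36.8, 34.1, 29.8 and 41.0 in control mice 1 to 4 and 21.9, 25.3, 22.1 and 21.9 in HKO mice 1 to 4 and fell (log2 fold change -0.64, SE 0.120, adjusted p = 0.00316). *Cebpa*, a liver factor that binds the C/EBP letters, had levels of 150.03, 164, 142 and 128 in control mice 1 to 4 and 93.7, 89.7, 112 and 71.3 in HKO mice 1 to 4 and fell (log2 fold change -0.67, SE 0.142, adjusted p = 0.00558). In these 3 genes all HKO livers were below all controls, except for *Prox1* in FPKM without TMM factors. All 4 calls stood in all 17 alternative settings. *Sirt5* and *Nr3c1* fell and *Onecut1* rose as well, with adjusted p between 0.00792 and 0.0465. Any part of these genes in the members' levels was not tested.

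**Figure D5:**
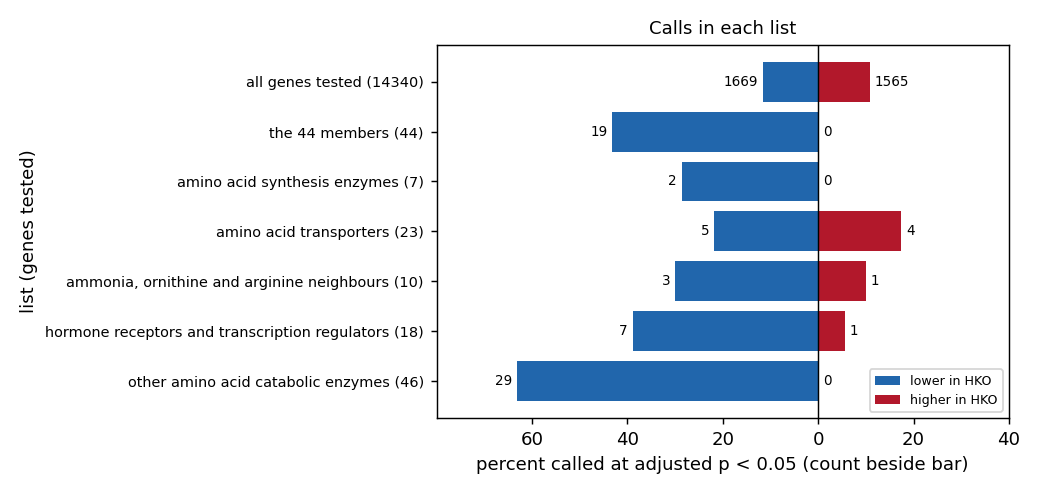
Share of the tested genes of each list, in percent, that fell or rose at an adjusted p under 0.05 in edgeR, beside the 11.6% lower and 10.9% higher of all 14340 tested genes. Of the members 19 of 44 fell and 0 rose, and of the other catabolic enzymes 29 of 46 fell and 0 rose; without scaling factors 8 and 15 fell, and 3 of the other catabolic enzymes rose.

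Markers of several liver cell types moved with the groups, and their part in the members' levels was not tested. Of 12 hepatocyte markers 11 were in the table and tested, and 3 of them, *Apoh*, *Serpina1c* and *Apob*, fell, and without scaling factors 2 fell. The count was 1 without control mouse 1 or 3. Their summed level was 20586, 21832, 20784 and 18765 in control mice 1 to 4 and 20856, 15229, 19208 and 14091 in HKO mice 1 to 4, with *Alb* the most abundant at 8901, 9054, 8962 and 7627 in controls and 9649.8, 6712, 8445 and 6460.4 in HKO livers. HKO mice 1 and 3 were within the range of the controls or near it, and the hepatocyte markers were abundant in all 8 livers, as the tissue label says. Of 10 markers of periportal hepatocytes, which include the members *Sds*, *Hal*, *Gls2* and *Ass1*, 4 fell, and without scaling factors 3 fell and 3 rose, and 2 rose without HKO mouse 1 and 1 without control mouse 2. Their summed level was 3524, 3362, 3712 and 3376 in control mice 1 to 4 and 3189, 2633, 2673 and 2051 in HKO mice 1 to 4, with *Pck1* the most abundant by the mean over all livers, at 1390.1, 1316, 1420.1 and 1148 in controls and 987, 851, 838 and 613 in HKO livers. Of 10 markers of pericentral hepatocytes 4 fell, among them *Glul*, and without scaling factors 3 fell and 2 rose. The number that fell was 2 without control mouse 3 or 4 and without HKO mouse 2 or 3 and 6 without HKO mouse 1, and 1 rose without control mouse 2. In sum these reached 4017, 4069, 4337 and 4205 in control mice 1 to 4 and 3842, 2524, 2772 and 2004 in HKO mice 1 to 4, with *Cyp2e1* the most abundant at 2553, 2555, 2941 and 2712 in controls and 2279, 1467, 1748 and 1151 in HKO livers. In both zones every HKO liver had a lower sum than every control, with HKO mouse 4 lowest. This depended on the TMM factors, since without them HKO mouse 1 lies within the range of the controls.

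Markers of several other cell types rose. Of 8 cholangiocyte markers 5 were tested and 3 rose, *Krt19*, *Epcam* and *Spp1*, with a summed level of 39.7, 39.9, 37.8 and 38.6 in control mice 1 to 4 and 72.9, 137, 147 and 251 in HKO mice 1 to 4. *Spp1* was the most abundant, at 27.4, 27.1, 25.5 and 25.2 in controls and 59.0, 118, 128 and 222 in HKO livers. Of 10 markers of stellate cells and fibroblasts 8 rose, with a summed level of 92.5, 84.1, 84.3 and 76.2 in control mice 1 to 4 and 117, 209, 170.1 and 218 in HKO mice 1 to 4. *Dcn* was the most abundant, at 47.3, 40.6, 47.2 and 44.04 in controls and 66.0, 87.9, 70.6 and 95.0 in HKO livers. Of 8 markers of Kupffer cells and macrophages 6 rose (2 without control mouse 3, 3 without control mouse 1 or 4 and without HKO mouse 4 and 4 without HKO mouse 3), with a summed level of 353, 421, 329.5 and 349 in control mice 1 to 4 and 543, 519.6, 542 and 693 in HKO mice 1 to 4. *Cd5l* was the most abundant, at 125, 144, 111 and 113 in controls and 204, 169, 217 and 239 in HKO livers. HKO mouse 1 had the lowest sum of the HKO mice for cholangiocytes and stellate cells, and every HKO sum in these 3 lists was above every control. Of 8 markers of proliferating cells 7 were tested and all 7 rose, with a summed level of 4.93, 9.13, 4.06 and 5.54 in control mice 1 to 4 and 34.0, 23.2, 18.0 and 32.1 in HKO mice 1 to 4 and *Ccnb1*, the most abundant by the mean over all livers but not in the controls, at 0.283, 0.881, 0.514 and 0.726 in controls and 8.85, 5.23, 4.49 and 6.94 in HKO livers. None of these 4 lists turned direction without scaling factors.

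Of 8 markers of sinusoidal endothelium 2 fell, *Stab2* and *Lyve1*, and without scaling factors 1 fell and 2 rose. The number of these that fell was 0 without any 1 of the 4 controls and without HKO mouse 2 or 3, 1 without HKO mouse 4 and 4 without HKO mouse 1. Their summed level was 138, 152, 148 and 151 in control mice 1 to 4 and 135, 124, 121 and 116 in HKO mice 1 to 4, with *Clec4g* the most abundant by the mean over all livers, at 19.8, 27.0, 21.3 and 23.4 in controls and 19.7, 23.9, 27.4 and 21.8 in HKO livers. Of 8 erythroid markers 6 were in the table and 4 were tested, and all 4 fell (2 without control mouse 3 and without HKO mouse 4), with a summed level of 235, 463, 326 and 304 in control mice 1 to 4 and 73.1, 145, 175 and 79.3 in HKO mice 1 to 4. *Hba-a1* was the most abundant, at 128, 283, 182 and 179 in controls and 52.5, 88.3, 107 and 48.5 in HKO livers. All HKO livers held less of this blood cell RNA than all controls. Of 8 lymphocyte markers 6 were tested, and 0 passed in edgeR or DESeq2, with 0 at an unadjusted p under 0.05 and 1 called higher by limma on log2(FPKM + 1). Together they summed to 9.74, 9.63, 7.90 and 8.75 in control mice 1 to 4 and 8.43, 10.1, 8.66 and 7.66 in HKO mice 1 to 4, with *Gzma* the most abundant by the mean over all livers, at 3.09, 3.803, 2.54 and 2.94 in controls and 2.12, 3.06, 3.04 and 1.59 in HKO livers. Of 8 neutrophil markers 6 were tested, and 0 passed in edgeR, DESeq2 or limma on log2(FPKM + 1), with 0 at an unadjusted p under 0.05. In sum they reached 29.2, 77.2, 40.7 and 42.6 in control mice 1 to 4 and 97.8, 32.8, 14.8 and 48.2 in HKO mice 1 to 4, with *S100a9* the most abundant at 13.7, 29.1, 16.6 and 22.5 in controls and 41.1, 12.3, 5.66 and 20.5 in HKO livers, and HKO mouse 1 and control mouse 2 were highest.

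Markers of neighbouring organs were checked for tissue carried along. Of 8 pancreatic acinar markers 1 was tested, with no call, and their summed level was 3.93, 3.16, 3.27 and 609 in control mice 1 to 4 and 4.45, 3.69, 3.12 and 4.24 in HKO mice 1 to 4. Control mouse 4 alone held this RNA at a high level, with *Ctrb1* at 270.5. Without control mouse 4 the members' median log2 fold change was -0.42, and 10 members fell (7.22% of all tested genes), against 19 (11.6%) with it. Any part of the pancreatic RNA in these values was not tested. Of 8 kidney tubule markers 0 were tested, since all were under the level filter, and their summed level was at most 0.197 in any liver, with *Aqp2*, *Kap* and *Slc12a1* at 0 counts in every liver. A count of 0 allows up to 3 counts of a library, 0.288 to 0.349 CPM (counts scaled to library size), for counting error only.

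Several members share exon bases with other genes, which limits how their counts can be read. *Afmid* shares 60.8% of its transcript with *Gm20708*, and 2.35% of its exon bases lie opposite *Tk1*. *Aldh4a1* shares 32.5% of its exon bases with *Gm21969* on the same strand, which held 1 to 3 counts a liver. *Got2* shares 51.1% of its transcript with the pseudogene *Got2-ps1*, at a level of 0.991 to 4.26, and *Glud1* shares 27.8% with *Glud-ps*, at 4.80 to 10.7, and with *Gm43444*. *Gm5424*, which resembles *Ass1* and is named after its values were seen, had a level of 390.1 to 582 and did not pass the test (log2 fold change -0.11, adjusted p = 0.640). Exons on the opposite strand cover 29.6% of *Sds*, 15.6% of *Nags*, 8.997% of *Got2*, 7.26% of *Csad*, 4.63% of *Pcca* and 2.79% of *Gls2*. The starts of *Asl* and *Crcp* lie 43 bases apart on opposite strands, those of *Bckdha* and *Exosc5* 183, those of *Glud1* and *Shld2* 234 and those of *Amdhd1* and *Ccdc38* 599.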

How the data were processed

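The authors deposited 1 table with a raw count and an FPKM value per gene and liver. Their processing notes name Trim Galore 0.6.1 and FastQC 0.11.9, and their methods HISAT2 alignment to mm10 and featureCounts. The sources used here give no annotation release, strand setting or treatment of reads shared between genes. The authors' comparison columns hold a DESeq2 mean signal, a log2 fold change, its standard error and Wald statistic as a score, and a p-value with its adjusted form; the authors computed these values, and none was used here.

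The table has 55699 entries, of which 314 repeat a gene identifier with the same values under another symbol and were dropped. Genes at 0.5 FPKM or more in at least 4 livers were tested in edgeR 4.0.16 (TMM factors, quasi-likelihood test, Benjamini-Hochberg adjustment over 14340 genes; SE as the absolute log2 fold change over the root of F), with DESeq2 1.42.0 and limma 3.58.1 as alternatives in R 4.3.3. Levels are the authors' FPKM values divided by the TMM factor. Transcripts were compared with BLAST+ 2.17.0. *Usp39* was also tested by an exact permutation of its levels.

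The members and all lists were chosen with earlier results of these data known. Every member was named except 1, which is not reported, as are a few genes of other lists; counts and medians include them. 1 of the 5 motifs searched is not named either, and its share of windows is given. Values in every liver were given for the 2 members with the lowest p and the most abundant member of each of 8 roles, for up to 4 genes with the lowest p and an adjusted p under 0.05 of each other pathway list, and for *Usp39*. Cell type lists were given by their most abundant gene and markers at 0. Other genes were chosen after their values were seen, as stated where they appear. The symbols *Tf*, *Ahsp* and *Pycr3* were not found in the table. Where *Gcat* had a pair of entries, the one with more counts was used. The protein comparison of *Got1* with *Got2*, *Gpt* with *Gpt2* and *Sds* with *Sdsl* was not run, for lack of a protein table.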

Additional observations from a re-analysis of the deposited data

Results flagged for a closer look

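In 9 of the 126 groups of 4 livers examined for 63 named genes, the highest or lowest liver lay far from the others, with a gap to the nearest liver above Dixon's 95% critical share of the group's range. Chance gives this in about 1 of 20 groups. HKO mouse 1 accounted for 3 of the 9. *Ass1* was at 1103 in HKO mouse 1, above 757 to 786 in the other HKO livers. *Asl* was at 325 in HKO mouse 1, above 144 to 169 in the others. *Sdsl* was at 37.7 in HKO mouse 1, above 11.5 to 14.5. Among the controls, *Ass1* was at 789.7 in control mouse 2, below 943 to 972. HKO mouse 4 had *Agxt* at 129, below 206 to 221, and *Gcgr* at 44.4, below 63.4 to 66.3. HKO mouse 2 had *Pcca* at 14.3, above 11.5 to 11.6, *Slc25a13* at 116, above 78.1 to 84.5, and *Prox1* at 25.3, above 21.9 to 22.1.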

How the results depend on the processing

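With median-ratio or upper-quartile scaling, DESeq2, no filter on low values or a mean of at least 5 FPKM, the count of members that fell was 14 to 22 (6.91 to 12.7% of all tested genes). It was 8 (4.90%) without scaling factors, 7 (4.44%) and 7 (4.37%) with limma on log2(FPKM + 1) and log2(FPKM + 0.1), 29 (15.2%) with limma voom and quality weights, and 10 to 27 (6.83 to 11.9%) with each liver left out in turn. Past the study's cutoff, 7 members were lower without scaling factors (4.18% of all tested genes), 8 (3.59%) and 8 (4.51%) in these limma settings, 10 (8.98%) with a mean of at least 5 FPKM and 11 to 21 (8.14 to 10.53%) with a liver left out. Of the other catabolic enzymes 15, 13 and 13 fell without scaling factors and in these limma settings, and 18 to 28 with a liver left out. The count that rose was 3, 3 and 3 in those settings, 2 with upper-quartile scaling, 1 with DESeq2, 1 with no filter, 1 with a mean of at least 5 FPKM, 1 with voom weights and 0 to 1 with a liver left out. The members' median log2 fold change was -0.22, -0.24 and -0.24 in those settings and -0.49 to -0.36 with a liver left out. Without scaling factors and with limma on log2(FPKM + 1) and log2(FPKM + 0.1), in that order, the sign turned for *Otc* (0.0136, 0.00749, 0.00751), *Ass1* (0.123, 0.117, 0.117), *Slc25a15* (0.0177, 0.0134, 0.0135), *Got1* (0.0208, 0.0222, 0.0223), *Got2* (0.124, 0.122, 0.123), *Ftcd* (0.0373, 0.0299, 0.0300), *Aldh4a1* (0.0274, 0.0225, 0.0230) and *Aass* (0.0274, 0.0177, 0.0177). *Glud1* was at -0.00591 with no filter, -0.0282 without control mouse 3, -0.0171 without control mouse 4 and -0.000885 without HKO mouse 2. The setting without scaling factors and both limma settings apply no factor for the composition of a library; the cause of the other differences was not tested. Leaving out a liver leaves fewer samples. Depth allowed every member to be tested, at 163 or more counts in each liver.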
